A study of Mus musculus with 6 samples.

Results

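Inward rectifier potassium channels were described through 10 genes, Kcnj10, Kcnj16, Kcnj2, Kcnj12, Kcnj3, Kcnj6, Kcnj9, Kcnj8, Kcnj11 and Kcnj13, each taken by its symbol from all 6 libraries. They are 10 of the 24421 genes listed and 10 of the 15 listed genes with a Kcnj symbol, and all 10 passed a minimum mean of 1 over the 6 libraries. RNA-seq had been performed on cells sorted by fluorescence from the olfactory bulb of 3 control and 3 Sox9 KO mice, adult males of a strain given as C57BL/6, with 1 library per mouse. All 6 mice had received AAV-GFAP-iCre-P2a-TurboRFP in the bulb, an adeno-associated virus in which the GFAP promoter, active in astrocytes, drives the recombinase Cre and the red fluorescent protein TurboRFP, and TurboRFP+ cells were collected 4 weeks later. In Sox9 KO the mice were Sox9fl/fl, so that Cre removes the floxed part of Sox9, a transcription factor of astrocytes, whereas the controls (WT) have no floxed allele and are called C57BL/6J mice in the labels and Sox9+/+ mice in the sorting methods. The cells are thus defined by the GFAP promoter and the sort, and per the methods purity was judged from cell type markers in the RNA-seq data and not by sorting again. The paper lists the Sox9fl/fl mice under a line name of their own, so floxed line and deletion cannot be told apart between the groups.

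Inward rectifier (Kir) channels are tetramers of small subunits, each with a pore loop between a pair of membrane helices, and they pass potassium more readily into the cell than out of it. They hold the resting membrane potential near the potassium equilibrium and need the membrane lipid PIP2 to open. In astrocytes Kir4.1, encoded by Kcnj10, is the main resting conductance and takes part in clearing potassium released by active neurons, and Kir5.1, encoded by Kcnj16, forms mixed channels with it. Kir2 subunits are strong rectifiers of neurons, muscle and microglia, Kir3 subunits form the G protein-gated GIRK channels of neurons, Kir6 subunits form ATP-sensitive channels together with a sulfonylurea receptor, and Kir7.1 is known from the choroid plexus and the retinal pigment epithelium.

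The values, called normalized counts here, are reads scaled by a size factor for each library. A library held 18242129 to 86906527 reads on genes, a single read was worth 0.395 to 1.58 normalized counts, and a count of 0 allows a level of up to 1.18 to 4.73 (3 reads, counting error only). Sox9 itself, the deleted gene, stood at 5185, 6562 and 4921 normalized counts in the controls and at 52.6, 64.3 and 57.7 in KO (limma log2 fold change −6.54, SE 0.15, adjusted p = 2.5e-09). The labelled cell type was present by its markers: the 13 astrocyte markers summed to between 685020 and 759426 normalized counts in the controls. In KO the same sum was 71704 to 85536, and 13 of 13 were called lower (median log2 fold change −3.69), with Slc1a2 the highest. The 12 microglia and macrophage markers, led by Ctss and Csf1r, went the other way in all 12 (median 1.98), from sums of 192285 to 218899 in control to 789494 to 926525 in KO. Of 12 neuron markers, led by Snap25 and Map2, 11 were called lower and none higher (median −2.58, sums of 25115 to 31643 in control and 3886 to 6559 in KO). For comparison with these 3 lists, 28.8% of all genes tested were called lower and 22.2% higher. No marker of these 3 lists was at 0 in all libraries of a group, so the sorted cells held RNA of several cell types in both groups, and in such bulk samples fewer cells of a type and less RNA per cell cannot be told apart.

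Among the 10 genes, 2 pairs are neighbours on the genome, and the members of each pair went in opposite directions in Sox9 KO. On chromosome 1 (GRCm38, GENCODE M21), Kcnj9 lies at chr1:172320501-172329318 on the minus strand and Kcnj10 at chr1:172341210-172374085 on the plus strand, so that their 5′ ends face each other across 11.9 kb with no other protein-coding gene between. On chromosome 11, Kcnj16 (chr11:110968033-111027968) and Kcnj2 (chr11:111066164-111076821) follow each other on the plus strand across 38.2 kb, again with no protein-coding gene between. The same chromosome carries Sox9, whose gene begins 1.71 Mb beyond the end of Kcnj2. The other genes lie apart from each other, Kcnj3 at chr2:55435970-55598145 (plus strand), Kcnj6 at chr16:94748636-94997701 (minus), Kcnj8 at chr6:142564837-142571614 (minus), Kcnj11 at chr7:46093953-46100764 (minus), Kcnj12 at chr11:61022564-61071131 (plus) and Kcnj13 at chr1:87386363-87394729 (minus). The 4 promoters are shown here because the values of these neighbours differed in opposite directions between the groups. Whether the promoters play a part was not tested, and the call of Kcnj9 depended on scaling, as given below. Each line runs 5′ to 3′ from 250 bases before the RefSeq start of the gene (GRCm38.p6) to 30 bases after it. Capitals mark a SOX core motif, ACAATG or ACAAAG, searched on both strands. The intervals are chr1:172340960-172341239 (plus strand) for Kcnj10, chr1:172329293-172329572 (minus strand) for Kcnj9, chr11:110967783-110968062 (plus strand) for the first of the 4 listed starts of Kcnj16 and chr11:111065914-111066193 (plus strand) for Kcnj2.
Kcnj10: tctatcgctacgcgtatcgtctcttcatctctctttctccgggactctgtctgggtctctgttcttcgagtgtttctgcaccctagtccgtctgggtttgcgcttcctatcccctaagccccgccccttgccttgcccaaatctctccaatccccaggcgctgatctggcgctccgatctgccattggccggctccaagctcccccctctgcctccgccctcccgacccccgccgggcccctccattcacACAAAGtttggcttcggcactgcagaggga
Kcnj9: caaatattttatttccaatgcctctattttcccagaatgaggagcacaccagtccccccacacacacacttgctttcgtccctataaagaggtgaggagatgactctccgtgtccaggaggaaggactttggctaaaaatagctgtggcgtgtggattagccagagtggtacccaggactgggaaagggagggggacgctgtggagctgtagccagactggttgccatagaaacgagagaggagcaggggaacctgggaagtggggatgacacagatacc
Kcnj16: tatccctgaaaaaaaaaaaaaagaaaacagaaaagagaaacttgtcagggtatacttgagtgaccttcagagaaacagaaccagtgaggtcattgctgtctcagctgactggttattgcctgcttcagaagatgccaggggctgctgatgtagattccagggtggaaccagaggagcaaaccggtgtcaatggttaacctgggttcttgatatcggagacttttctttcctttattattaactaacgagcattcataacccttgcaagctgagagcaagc
Kcnj2: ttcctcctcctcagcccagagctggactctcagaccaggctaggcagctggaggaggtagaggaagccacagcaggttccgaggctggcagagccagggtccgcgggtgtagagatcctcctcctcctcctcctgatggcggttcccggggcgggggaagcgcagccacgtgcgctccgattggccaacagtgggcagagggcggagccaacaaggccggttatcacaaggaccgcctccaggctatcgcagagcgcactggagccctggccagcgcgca

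RefSeq windows of 300 bases (250 before and 50 after a start) were listed for 9 of the 10 genes, 13 windows in all, and Kcnj11 had none. A SOX core motif was found in 1 of the 13, the Kcnj10 window, where ACAAAG begins at the first transcribed base of the listed start. Over all 32851 windows, 18.7% held ACAAAG, 12.6% held ACAATG and 28.6% held at least 1 of them, so a single match among 13 windows lies below the share of all promoters. Such a match describes letters and not a bound site. The 4 windows shown also differ in base composition. Kcnj10 has 63.7% G+C and 21 CpG dinucleotides, and Kcnj2 66.7% and 18, both above the upper quartile of all windows for G+C (61.7%). The Kcnj16 window shown (44.3% and 3 CpG) lies below the lower quartile (45.7%), and Kcnj9 (52.3% and 5 CpG) is near the median of 52.7% and 7. At the other listed Kcnj16 starts the windows had 48.0%, 53.0% and 44.0% G+C with 8, 5 and 1 CpG, all below the G+C of Kcnj2. Hence each neighbour pair joins a promoter richer in G+C to one poorer in it, and the gene that fell in Sox9 KO is the richer one in the first pair and the poorer one in the second.

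Of the 10 channel genes, 7 fell, 2 rose and 1 was not called different in Sox9 KO. A gene was called at an adjusted p of 0.05 (limma on log2 of the normalized count plus 1, Benjamini-Hochberg over all 18413 genes tested) and at least 1.5-fold. By this rule 28.8% of all genes tested were called lower and 22.2% higher, against 7 and 2 of the 10 genes. The median log2 fold change of the 10 was −2.47, against −0.07 over all genes tested. The 7 lower genes also had every KO library below every control library, as 34.7% of all genes tested did, and the 2 higher genes had every KO library above every control library, as did 32.4%. Kcnj10, Kcnj16, Kcnj12, Kcnj3, Kcnj6, Kcnj8 and Kcnj11 made up the lower genes, Kcnj2 and Kcnj9 the higher ones, and Kcnj13 was the gene without a call.

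**Figure D1:**
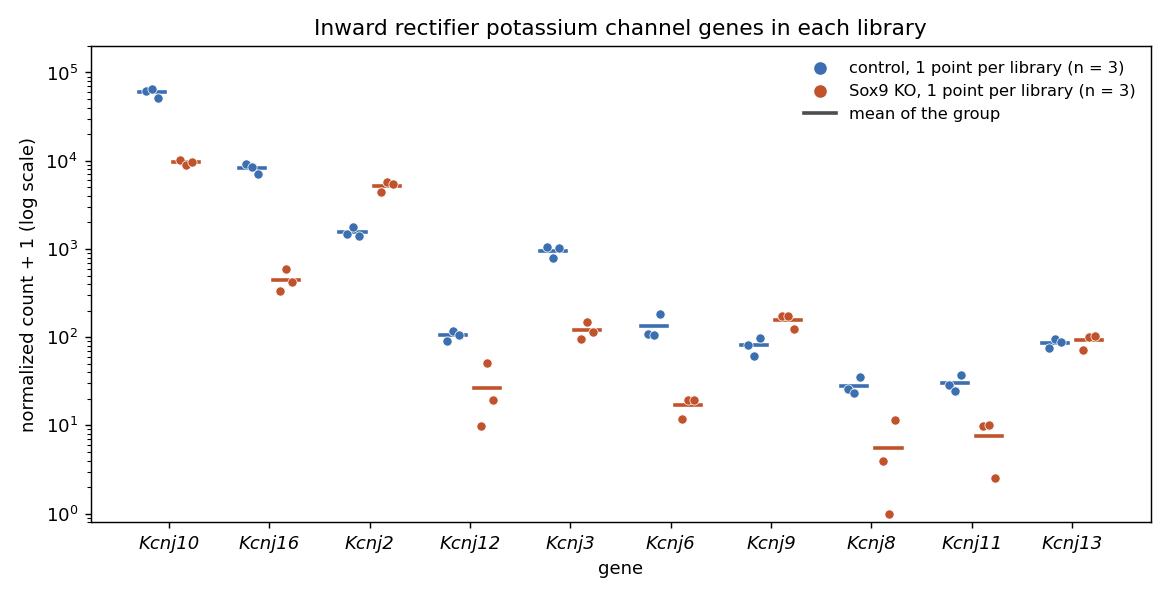
Normalized counts plus 1 (vertical axis, log scale) of the 10 channel genes (horizontal axis), with 1 point per library, blue for the 3 control and red for the 3 Sox9 KO libraries, and a line at each group mean. Kcnj10 drops from about 59858 to 9555 on average, Kcnj2 and Kcnj9 are the genes with all red points above all blue ones, and the groups overlap in Kcnj13 alone.

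Kir4.1 and Kir5.1, the astrocyte pair, carried most of the signal and fell to different degrees. Kcnj10 stood at 61833, 65762 and 51979 normalized counts in the controls and at 10186, 8885 and 9593 in KO. The groups were far apart, and the KO libraries differed little among themselves. The mean was 59858 ± 7101 (SD, n = 3) in control against 9555 ± 652 in KO, a ratio of control to KO of 6.26 and a limma log2 fold change of −2.64 (SE 0.11, adjusted p = 3.1e-08). Kcnj16 stood at 9075, 8462 and 7093 normalized counts in the controls and at 331, 585 and 419 in KO. The fall was far larger than the spread within either group, although the KO libraries varied more among themselves (coefficient of variation 28.99%) than those of Kcnj10 (6.82%). Its mean was 8210 ± 1015 (SD, n = 3) in control against 445 ± 129 in KO, a ratio of 18.5 and a limma log2 fold change of −4.23 (SE 0.18, adjusted p = 3.8e-08).

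Since Kir5.1 works in mixed channels with Kir4.1, the balance of both transcripts was followed within each library. Per length of exon, Kcnj10 was 4.96, 5.66 and 5.33 times Kcnj16 in the controls and 22.4, 11.1 and 16.7 times in KO. The log2 ratio rose by 1.59 on average with no overlap between the groups (exact permutation test, two-sided p = 0.1, the smallest that 3 libraries against 3 allow, adjusted p = 0.144 over the 13 ratios computed, which is also the adjusted value of every other ratio with this p). The astrocyte markers fell in the same libraries, and both genes were therefore set against their mean log2 level. Kcnj10 relative to the markers was 1.18, 1.27 and 1.04 on the log2 scale in control and 2.39, 1.96 and 2.13 in KO, a difference of 1.00 (exact permutation p = 0.1). Kcnj16 relative to the markers was −1.59, −1.69 and −1.83 in control and −2.55, −1.97 and −2.38 in KO, a difference of −0.595 (exact permutation p = 0.1). The part of the loss of astrocyte marker RNA in both results was not tested beyond these ratios. Neither gene was set against the markers of oligodendrocytes, their precursors or olfactory ensheathing cells. The median log2 fold changes of those lists were −1.67, −3.17 and −1.52. After quantile normalization of the libraries the log2 fold change of Kcnj10 was −3.25.

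The strong rectifiers of the Kir2 group moved apart. Kcnj2, which encodes Kir2.1, stood at 1486, 1769 and 1398 normalized counts in the controls and at 4458, 5677 and 5379 in KO. Every KO library was well above every control. Its mean was 1551 ± 194 (SD, n = 3) in control against 5172 ± 635 in KO, a ratio of KO to control of 3.33 and a limma log2 fold change of 1.74 (SE 0.12, adjusted p = 7.7e-07). Kir2.1 is also a known potassium conductance of microglia, and the microglia and macrophage markers were higher in the same libraries. Relative to the mean log2 level of these markers, Kcnj2 was −2.96, −2.58 and −2.97 in control and −3.43, −2.99 and −2.93 in KO. These ranges overlapped (mean difference −0.28, exact permutation p = 0.4), so Kcnj2 and the marker list rose by sizes that this design did not separate.

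Kcnj12, which encodes Kir2.2, stood at 90.6, 116 and 106 normalized counts in the controls and at 8.93, 50.1 and 18.2 in KO. All 3 KO libraries were below the controls, but KO replicate 2 was far above the other two. The mean was 104 ± 12.6 (SD, n = 3) in control against 25.8 ± 21.6 in KO, a limma log2 fold change of −2.29 (SE 0.53, adjusted p = 0.0034), which became −2.92 without KO replicate 2 and −1.49 after quantile normalization. Relative to the neuron markers the groups overlapped for Kcnj12 (log2 ratio −3.38, −2.99 and −3.51 in control and −4.23, −2.47 and −3.11 in KO, exact permutation p = 1). The interval of its fold change, −3.46 to −1.12 on the log2 scale (95%), was among the widest of the 10.

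**Figure D2:**
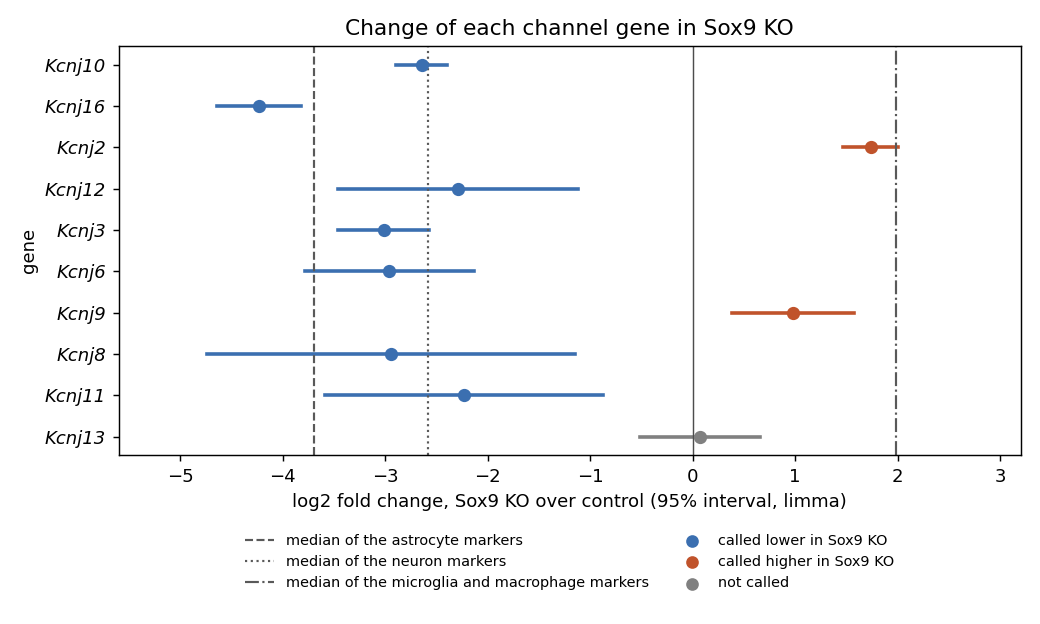
Log2 fold change of Sox9 KO over control (horizontal axis) for each of the 10 channel genes (vertical axis), with the 95% interval from limma, coloured by call, and vertical lines at the median change of the astrocyte (−3.69), neuron (−2.58) and microglia and macrophage (1.98) markers. Kcnj16 lies to the left of the astrocyte line and Kcnj10 to the right of it, and Kcnj2 and Kcnj9 are the points called higher.

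GIRK channels open when G protein beta-gamma subunits are released by receptors coupled to Gi/o proteins, and their 3 brain subunits did not move together. Kcnj3 (GIRK1), a subunit shared by many GIRK tetramers, stood at 1061, 786 and 1021 normalized counts in the controls and at 94.3, 148 and 112 in KO. All KO libraries were far below all controls. Its mean fell from 956 ± 149 to 118 ± 27.6 (SD, n = 3), a limma log2 fold change of −3.02 (SE 0.20, adjusted p = 5.0e-07). Kcnj6 (GIRK2), known from midbrain dopamine neurons and cerebellar granule cells, stood at 107, 105 and 184 normalized counts in the controls and at 10.9, 18.6 and 18.2 in KO. Control replicate 3 was higher than the other controls, and all 3 KO libraries lay well below. limma gave a log2 fold change of −2.96 (SE 0.37, adjusted p = 5.4e-05), or −2.17 after quantile normalization.

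Kcnj9 (GIRK3), which influences where GIRK channels are sent in the cell, stood at 80.4, 60.6 and 97.7 normalized counts in the controls and at 174, 174 and 123 in KO. Every KO library was above every control, though KO replicate 3 came close to the highest control. Its mean rose from 79.6 ± 18.6 to 157 ± 29.2 (SD, n = 3), a limma log2 fold change of 0.98 (SE 0.27, adjusted p = 0.0087). The call depended on scaling: with the libraries set to equal totals without the ribosomal RNA precursor Rn45s the log2 fold change was 0.65 (limma adjusted p = 0.057), and after quantile normalization it was 1.70.

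The GIRK genes were also set against the neuron markers, which themselves fell in KO (median log2 fold change −2.58). A gene that did not fall is higher relative to them, so the Kcnj9 ratio adds nothing to its own call. Kcnj3 relative to their mean log2 level was 0.15, −0.23 and −0.24 in control and −0.97, −0.92 and −0.55 in KO, a mean difference of −0.71 (exact permutation p = 0.1). Kcnj6 differed by −0.65 with overlapping groups (exact permutation p = 0.3). Kcnj9 went from −3.55, −3.91 and −3.62 to −0.10, −0.70 and −0.42, a difference of 3.29 with no overlap (exact permutation p = 0.1, adjusted p = 0.144 over the 13 ratios). Per length of exon, Kcnj3 was 8.59 to 10.9 times Kcnj9 in the controls and 0.446 to 0.751 times Kcnj9 in KO. Kcnj3 was 8.11 to 14.6 times Kcnj6 in control and 9.03 to 12.6 times in KO, so that the ratios of these 2 transcripts overlapped between the groups. The part of the loss of neuron marker RNA in these values was not tested beyond the ratios. In GENCODE M21, exons of Kcnj3, Kcnj6 and Kcnj9 share 1621, 380 and 172 bases with the antisense genes Gm26794, Gm41505 and Gm36937, which have no values here, and reads from these bases cannot be told apart without strand.

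The pore subunits of ATP-sensitive channels were rare and fell. Kcnj8 (Kir6.1), known from pericytes and smooth muscle, had 17, 32 and 22 control reads and 3, 0 and 7 KO reads, or 24.8, 22.02 and 34.7 against 2.98, 0 and 10.6 normalized counts. The 0 in KO replicate 2 allows a level of up to 1.18 normalized counts, which covers counting error only. limma gave a log2 fold change of −2.95 (SE 0.81, adjusted p = 0.0090), and with so few reads it moved to −2.02 without KO replicate 2 and to −3.80 without KO replicate 3, and from −1.89 to −4.17 with a pseudocount of 5 or 0.1. Kcnj11 (Kir6.2), known from neurons and beta cells, had 19, 34 and 23 control reads and 9, 23 and 1 KO reads, or 27.8, 23.4 and 36.3 against 8.93, 9.08 and 1.52 normalized counts. All KO libraries were below all controls, with KO replicate 3 at a single read. limma gave a log2 fold change of −2.23 (SE 0.61, adjusted p = 0.0090), −1.57 without KO replicate 3, and −1.47 with no call after quantile normalization (adjusted p = 0.074 from limma).

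Their regulatory partners, the sulfonylurea receptors SUR1 (Abcc8) and SUR2 (Abcc9), did not share one pattern. Abcc8 fell from 16.1, 12.4 and 20.49 normalized counts to 3.97, 2.37 and 0 (limma log2 fold change −2.73, adjusted p = 0.0059). Abcc9 stood at 108, 160 and 249 normalized counts in control and at 92.3, 81.7 and 173 in KO, with overlap and no call (limma log2 fold change −0.57, adjusted p = 0.194). Kcnj8 relative to Abcc9, its usual partner in vessel cells, was −2.08, −2.81 and −2.81 on the log2 scale in control and −4.55, −6.37 and −3.90 in KO (difference −2.38, exact permutation p = 0.1), where the lowest value is the library without a read. This difference was −1.66 without KO replicate 2, −1.34 with a pseudocount of 5 and −3.59 with 0.1. Relative to 8 mural cell markers Kcnj8 was lower by 1.90 on the log2 scale (exact permutation p = 0.1), and the difference was −1.01 without KO replicate 2, −2.57 without KO replicate 3, −0.91 with a pseudocount of 5 and −3.08 with 0.1. Of these 8 markers, led by Notch3 and Anpep, 4 were called lower and 1 higher, against 28.8% and 22.2% of all genes tested. They summed to between 4437 and 5112 normalized counts in control and between 2147 and 3230 in KO. Kcnj11 relative to Abcc8 differed by 0.50 (exact permutation p = 0.1), a difference that turned to −0.03 with a pseudocount of 5, and relative to the neuron markers it overlapped between the groups (exact permutation p = 0.9).

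Kcnj13 (Kir7.1) stood at 74.5, 94.97 and 88.3 normalized counts in the controls and at 70.5, 99.9 and 103 in KO. The groups overlapped, and the means were 85.9 ± 10.4 and 91.2 ± 18.0 (SD, n = 3). The log2 fold change of 0.07 (SE 0.26, 95% interval −0.51 to 0.66, adjusted p = 0.826 from limma) leaves room for a change of this size in either direction. Its sign turned with the libraries scaled to equal totals (−0.17), and quantile normalization gave a rise (0.87, adjusted p = 0.011 from limma). The gene shares 623 of its 1270 exon bases with Gigyf2 on the opposite strand, whose control level was 1428 ± 124 normalized counts (SD, n = 3) and KO level 1914 ± 8.40. The sources used here do not say whether the counting used strand, so that reads of both genes cannot be told apart in these bases. For the choroid plexus, a known site of Kir7.1, 8 ependymal and choroid plexus markers, led by Foxj1 and Clic6, were summed. The sums were between 892 and 1206 normalized counts in control and between 148 and 310 in KO. Of the 8, 2 were called lower and none higher, where 28.8% of all genes tested were called lower and 22.2% higher. The part of these markers in the Kcnj13 values was not tested.

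Of the 5 other Kcnj genes, all but Kcnj4 had few or no reads in several libraries. Kcnj4 (Kir2.3) fell from 80.4, 70.9 and 78.8 normalized counts in control to 2.98, 9.08 and 1.52 in KO (limma log2 fold change −4.06, adjusted p = 8.5e-05), the same direction as Kcnj12 and opposite to Kcnj2. Kcnj14 (Kir2.4), the remaining Kir2 gene, had 2.92, 19.3 and 23.6 normalized counts in control and 4.96, 3.95 and 4.56 in KO, with no call. Kcnj5 (Kir3.4) and Kcnj15 (Kir4.2) stood apart in 1 library. KO replicate 3 had 134 normalized counts of Kcnj5 and 66.8 of Kcnj15, whereas the other 5 libraries had between 0 and 4.38 of Kcnj5 and between 0 and 6.88 of Kcnj15. Kcnj1 (Kir1.1), the kidney subunit, ranged from 0 to 19.7 normalized counts over the 6 libraries with no call.

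Levels were compared between the genes per kilobase of exon, as ppm (1 ppm is 1e-06) of the summed level of all 23350 genes with a length. Such parts of a library's sum change between the groups differently from the normalized counts. The mean of Kcnj13 went from 11.96 to 8.82 ppm, but from 85.9 to 91.2 normalized counts. In control the order of the levels was Kcnj10 (1958 ± 221), Kcnj16 (369 ± 47.2), Kcnj2 (50.4 ± 5.60), Kcnj3 (32.5 ± 5.51), Kcnj13 (11.96 ± 1.28), Kcnj12 (6.68 ± 0.71), Kcnj9 (3.29 ± 0.80), Kcnj6 (3.06 ± 1.06), Kcnj8 (1.89 ± 0.47) and Kcnj11 (1.40 ± 0.32 ppm, SD, n = 3). Each of the first 6 was above the next in every library of the group, while the ranges of Kcnj9, Kcnj6, Kcnj8 and Kcnj11 overlapped from neighbour to neighbour. In KO the order was Kcnj10 (215 ± 4.73), Kcnj2 (116 ± 19.6), Kcnj16 (13.9 ± 4.67), Kcnj13 (8.82 ± 2.07), Kcnj9 (4.46 ± 0.85), Kcnj3 (2.79 ± 0.78), Kcnj12 (1.17 ± 1.02), Kcnj6 (0.26 ± 0.08), Kcnj11 (0.22 ± 0.14) and Kcnj8 (0.22 ± 0.27 ppm, SD, n = 3). In KO the ranges of Kcnj16 and Kcnj13 overlapped, as did those of Kcnj9 and Kcnj3, Kcnj3 and Kcnj12, Kcnj6 and Kcnj11, and Kcnj11 and Kcnj8, so that the order within these pairs was not resolved. Kcnj2 thus passed from the third to the second place, above Kcnj16 in all 3 KO libraries.

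As a share of the summed level of the 10 genes, Kcnj10 made up 79.6% to 81.4% in control and 54.7% to 64.8% in KO. Kcnj2 went from 1.90% to 2.17% of the sum in control to 28.1% to 34.7% in KO, and Kcnj16 from 14.4% to 16.1% in control to 2.89% to 4.94% in KO. The sum itself was 2138 to 2601 ppm in control and 337 to 384 in KO. Kcnj10 was therefore still the highest of the 10 per length in every KO library, at 2.30, 1.58 and 1.80 times Kcnj2, where it had been 37.4 to 41.9 times Kcnj2 in control. Kir transcripts of the KO libraries came mainly from Kcnj10 and Kcnj2, those of the controls mainly from Kcnj10 and Kcnj16.

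**Figure D3:**
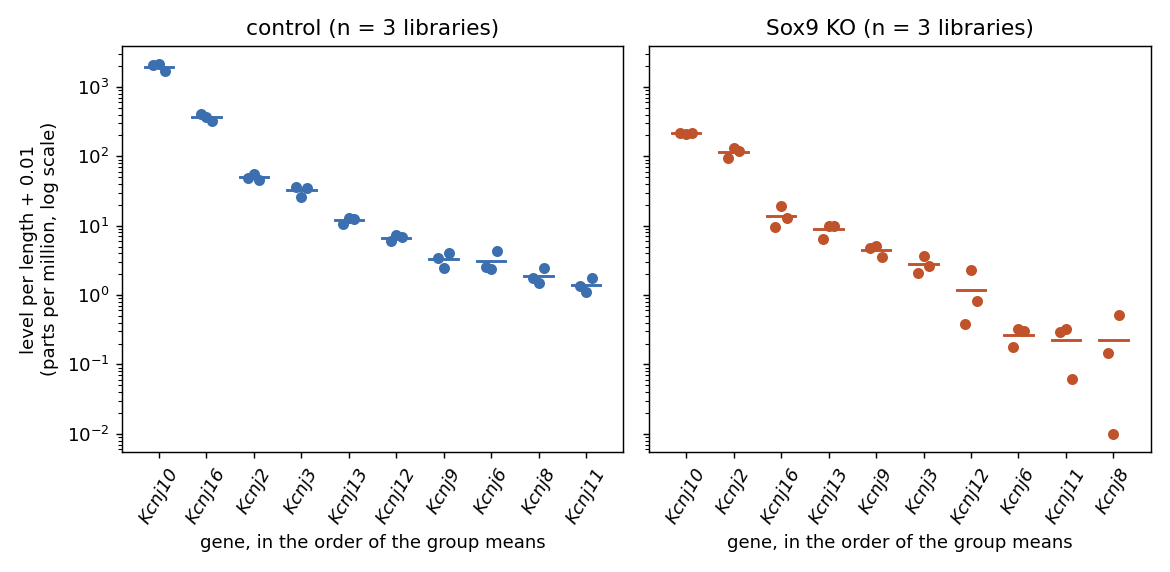
Level per length in ppm plus 0.01 (vertical axis, log scale) of the 10 channel genes in the order of their group means (horizontal axis), control on the left and Sox9 KO on the right, with 1 point per library (n = 3 each) and a line at the mean. Kcnj10 leads in both panels, and Kcnj2 takes the place of Kcnj16 after it in KO.

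The genes around these channels were counted in fixed lists. For comparison, 28.8% of all genes tested were called lower and 22.2% higher, with a median log2 fold change of −0.07. Of 13 genes of the dystrophin complex and of other scaffold and endfoot proteins near Kir4.1, 10 fell and none rose (median log2 fold change −1.38). The water channel Aqp4 fell from 60397 ± 3942 to 6352 ± 1235 normalized counts (SD, n = 3, log2 fold change −3.26), dystroglycan (Dag1) by 2.08 and alpha-dystrobrevin (Dtna), the most strongly changed, by 3.75 on the log2 scale. Of 14 genes of potassium and glutamate uptake and of gap junction coupling, 12 fell and 2 rose (median −3.15). The glutamate transporters Slc1a2 and Slc1a3 had log2 fold changes of −4.30 and −2.72. The 2-pore potassium channel Kcnk1 fell most, from 5722 ± 1012 to 143 ± 88.0 normalized counts (SD, n = 3, log2 fold change −5.47). The cotransporter Slc12a2 (NKCC1) was the gene with the larger rise, from 5660 ± 400 to 13545 ± 2583 (SD, n = 3, log2 fold change 1.24). Aqp4 in the first list and 6 genes of the second, Slc1a2 and Slc1a3 among them, also stand in the astrocyte marker list.

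On the side of GIRK gating, 16 of 26 genes for G protein subunits, RGS proteins and other proteins linked to GIRK channels fell and 4 rose (median log2 fold change −1.51). Among all genes tested, 28.8% were called lower and 22.2% higher. Gnao1, the Go alpha subunit, had the largest fall, from 15059 ± 716 to 902 ± 109 normalized counts (SD, n = 3, log2 fold change −4.07). Gnai2, the member with the highest mean over all 6 libraries, had 8227 ± 274 in control and 9433 ± 801 in KO with no call, and Gnb1, with a log2 fold change of −0.35, did not reach 1.5-fold. Rgs10, an RGS protein abundant in microglia, had the largest rise, from 2295 ± 220 to 9792 ± 954 (SD, n = 3, log2 fold change 2.09). Of 18 Gi/o-coupled receptors that open GIRK channels, 15 fell and none rose (median −2.59), against the same shares of all genes. The adenosine A1 receptor Adora1 had a log2 fold change of −2.97, and the GABA-B receptor subunits Gabbr1 and Gabbr2 of −2.61 and −3.65. The somatostatin receptor Sstr1 had the largest fall, from 29.2, 42.0 and 64.6 to 3.97, 3.16 and 0 normalized counts.

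The enzymes of PIP2 synthesis were mixed, with 2 of 10 called lower, 1 higher and 7 not called (median log2 fold change 0.13), shares below the 28.8% and 22.2% of all genes tested. Pip4k2a rose from 4625 ± 540 to 15208 ± 982 normalized counts (SD, n = 3, log2 fold change 1.72), close in size to the change of Kcnj2. Pi4ka had a log2 fold change of −0.67 and Pip5k1b, at low counts, of −2.04, while Pi4k2a, with 0.52, did not reach 1.5-fold.

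Since Kcnj16 and Kcnj2 share a chromosome with the deleted gene, the genes starting within 3 Mb of the start of Sox9 were listed by position. In this region the deletion and the floxed line cannot be told apart, since all KO mice and no controls are Sox9fl/fl. Of 56 tested genes, Sox9 and both channels among them, 26 were called lower, 12 higher and 18 not at all, with a median log2 fold change of −0.57. Over all genes tested, 28.8% were called lower and 22.2% higher, with a median of −0.07. The 6 nearest to Sox9 were Gm11681, BC006965, 2610035D17Rik, Slc39a11, Sstr2 and Cog1. The non-coding or poorly described genes Gm11681, BC006965 and 2610035D17Rik, which lie closest, had log2 fold changes of −1.36, −3.49 and −2.30 at 42.0, 47.2 and 174 mean normalized counts in control. Slc39a11 rose by 0.59, Sstr2 had a log2 fold change of −2.20 with overlapping groups, and Cog1 was not called. Grin2c, an NMDA receptor subunit of astrocytes and cerebellar granule cells, had the largest change after Sox9 (−5.34). Lower and higher genes both occurred along the region, and Kcnj16 and Kcnj2, with only 38.2 kb between them, gave changes of −4.23 and 1.74.

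**Figure D4:**
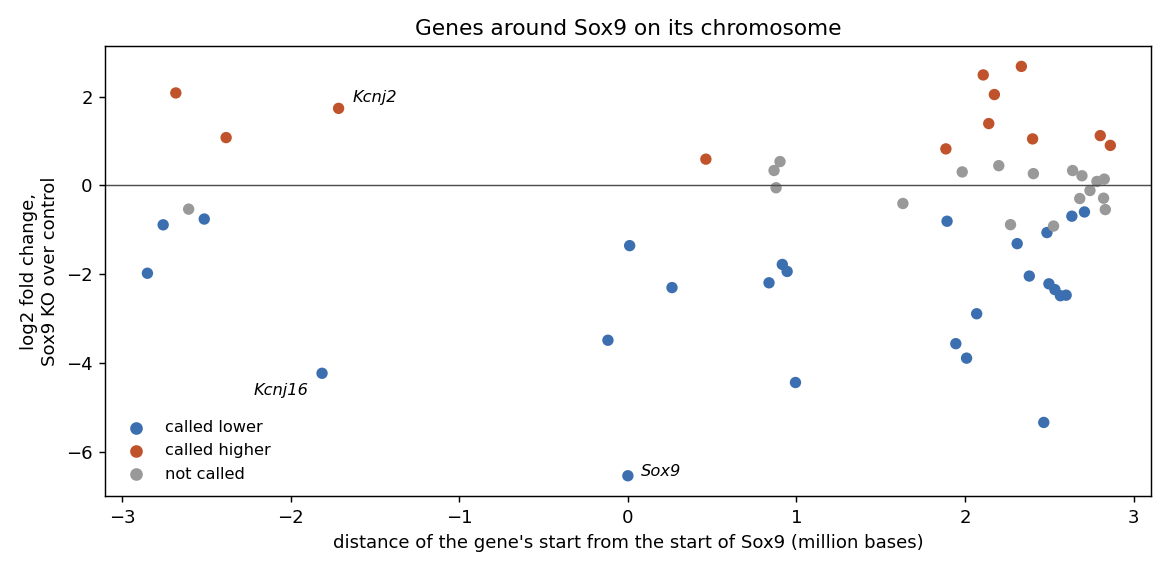
Log2 fold change of Sox9 KO over control (vertical axis) against the distance of each gene's start from the start of Sox9 in Mb (horizontal axis) for the 56 tested genes within 3 Mb, coloured by call. Kcnj16 (−4.23) and Kcnj2 (1.74) lie side by side before Sox9 with opposite changes, and called genes of both directions occur on both sides of Sox9.

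The expressed genes most like Kcnj10, Kcnj16 and Kcnj2 were sought by the root mean square distance of centred log2 values over the 6 libraries, among 11925 genes with a mean of at least 100 normalized counts. For Kcnj10 these were Eno1b, Lgalsl and Aen, at distances of 0.070, 0.082 and 0.084. For Kcnj16 they were Pcdh1 (0.066), Mtss1l (0.082) and Pcdhgc3 (0.098), with log2 fold changes of −4.20, −4.36 and −4.12. For Kcnj2 they were Cd68, a lysosomal protein of macrophages (0.077), Rinl (0.081) and Ticam2 (0.090), with log2 fold changes of 1.79, 1.67 and 1.88. These distances describe 6 libraries in 2 groups, and a gene of similar fold change is near by this measure whatever its role.

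**Figure D5:**
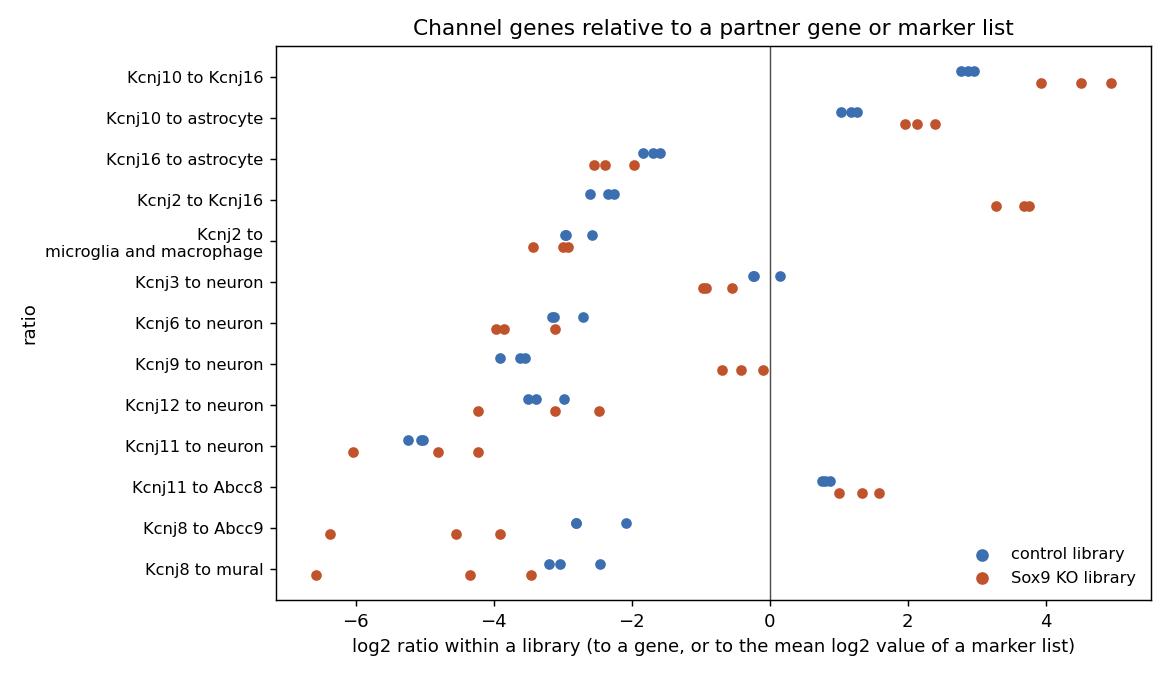
Log2 ratios within a library (horizontal axis) for 13 pairs of a channel gene and a partner gene or a marker list (vertical axis), with 1 point per library, blue for control and red for Sox9 KO (n = 3 each). Kcnj10 lies to the right and Kcnj16 to the left of its control values relative to the astrocyte markers, Kcnj9 moves furthest against the neuron markers (3.29), and Kcnj2 overlaps between the groups relative to the microglia and macrophage markers.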

How the data were processed

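Libraries were made from 10 ng of total RNA (Trio RNA-Seq). Per the labels, reads were mapped to mm10 with STAR 2.5.0a and normalized with DESeq2 1.20.0. The deposited signal values, named RPM by the authors, proved to be reads over a size factor of each library, since 100% were whole reads within 0.01 read. The planned test, limma 3.58.1 in R 4.3.3 on log2(value + 1) with a trend and a mean of at least 1, was kept for 18413 genes. edgeR 4.0.16 (quasi-likelihood) and DESeq2 1.42.0 were run on the recovered reads. The sources used here give neither gene annotation nor strandedness. Positions and lengths came from GENCODE M21 (95.6% of symbols matched) and promoters from RefSeq GRCm38.p6. The tests were run on simulated data with 200 of 18203 genes changed by 1 on the log2 scale. There limma recovered 117 of them with 4 false calls. Far more genes were called in the real data, a case that this simulation does not cover.

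The members and lists were chosen with earlier results of these data known. Named genes followed a rule: the 10 channel genes, Sox9, the other Kcnj and sulfonylurea receptor genes, and in each list the highest means and the largest called rise and fall, or the 6 genes nearest to Sox9. 1 gene that this rule names is not reported here. Gigyf2 was added for its overlap with Kcnj13 after its values were seen. Also counted were markers of border macrophages (4 of 7 lower, 2 higher), oligodendrocytes (8 of 8 lower), their precursors (6 of 6 lower), endothelial cells (4 of 8 lower, 2 higher) and olfactory ensheathing cells (7 of 8 lower). The shares over all genes tested were 28.8% lower and 22.2% higher. Alternatives changed the pseudocount, filter, scaling, variance model, block, tool or thresholds, or left out 1 library.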

Additional observations from a re-analysis of the deposited data

How the results depend on the processing

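Of 170 log2 fold changes of the 10 genes under 17 alternatives each, 162 kept their direction and their call. Of the genes, 7 kept both under every alternative, and the exceptions were Kcnj9, Kcnj11 and Kcnj13. Setting the libraries to equal totals without Rn45s left 1 gene called higher in place of 2, since Kcnj9 then had a log2 fold change of 0.65 (adjusted p = 0.057 from limma), and a limit of 2-fold also left 1. Quantile normalization ended the call of Kcnj11 (−1.47, adjusted p = 0.074 from limma) and called Kcnj13 higher (0.87, adjusted p = 0.011 from limma), for 6 lower and 3 higher genes. For these settings and the sign changes of Kcnj13 the cause was not tested. Kcnj13 turned to −0.17 at equal totals, −0.25 at equal totals without Rn45s, and ranged from −0.027 to 0.25 with each library left out (−0.025 without control replicate 1, −0.0024 without KO replicate 2, −0.027 without KO replicate 3). The Kcnj11 to Abcc8 ratio turned to −0.029 with a pseudocount of 5. With each library left out, 7 genes were called lower and 2 higher every time. Over all genes tested, quantile normalization shifted the median by 0.27, equal totals by −0.23 and equal totals without Rn45s by −0.31, and the share of called genes that were lower was 56.4% on the deposited values and 43.2%, 67.8% and 71.5% under these scalings. The replicate numbers did not pair the libraries, as deviations of equally numbered libraries correlated at −0.051, −0.013 and −0.013. With the replicate number as a block, 7 genes were called lower and 2 higher, no call of the 10 changed, and over all genes 5227 were called lower and 4048 higher against 5299 and 4090 without it. On the recovered reads edgeR called 5000 lower and 4340 higher and DESeq2 5100 and 3994, with 7 and 2 of the 10 genes each. Depth limits Kcnj8 and Kcnj11, with at most 34 reads in any library.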
